A study of Mus musculus with 6 samples.

Results

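mir-204 and mir-211 are a pair of mouse microRNA (miRNA) genes whose 5p mature products share a seed and which lie in introns of Trpm3 and Trpm1, a pair of related channel genes. Both were taken by name from a deposited table of 898 miRNA genes, of which 634 were above 0 in at least 1 group, so they make up 2 of 898 genes. They were chosen on their ESC and NC means in this table, so their levels below are a description with no test.

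The libraries came from E14Tg2a cells, a mouse embryonic stem cell (ESC) line, at passages 37 to 40. ESCs were kept in leukemia inhibitory factor (LIF), the cytokine that holds them pluripotent. Neuronal cells (NCs) were the same line grown as monolayers in which LIF was withdrawn and retinoic acid (RA) was added at 1 µM, a treatment of 48 hours. There were 3 replicate samples of each group, each with total RNA from 2 plates. Both groups are cultures of 1 line, so the spread below is that between libraries of this line. The parts of the cultures and of library preparation in it cannot be told apart.

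miRNAs are short RNAs cut from a hairpin precursor, and they repress mRNAs that pair with the seed at bases 2 to 8 of the mature strand. An intronic miRNA can be made from the transcript of its host gene. TRPM1 is a cation channel of melanocytes and of retinal ON bipolar cells, and TRPM3 is a cation channel of sensory neurons, choroid plexus and retinal pigment epithelium. miR-211 is known for the melanocyte lineage, where the factor MITF drives Trpm1, and miR-204 for the retinal pigment epithelium, lens and choroid plexus.

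The mature sequences are shown because the likeness of the pair decides what a read can tell apart. They were taken from RefSeq on GRCm38.p6, where both genes matched by symbol, and capitals mark the seed.
miR-204-5p: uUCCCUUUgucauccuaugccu
miR-211-5p: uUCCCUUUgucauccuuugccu
miR-204-3p: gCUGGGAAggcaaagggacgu
miR-211-3p: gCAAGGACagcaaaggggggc

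The 5p strands were identical at 21 of 22 bases. They differed by A17U, with the base of miR-204-5p first and positions counted from 1 at the 5′ end. They thus shared their first 16 bases and the seed UCCCUUU. Among 1738 mature miRNAs in RefSeq, that seed occurred in 1 more gene, as miR-7670-3p, which was not analysed here. The closest other mature miRNA to either 5p strand had 9 mismatches. The 3p strands were identical at 14 of 21 bases and had different seeds.

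The hairpins are shown because they differ far more than the mature 5p strands they hold. Here capitals mark the 5p strand.
Mir204: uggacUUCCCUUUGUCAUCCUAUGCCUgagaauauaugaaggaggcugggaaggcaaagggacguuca
Mir211: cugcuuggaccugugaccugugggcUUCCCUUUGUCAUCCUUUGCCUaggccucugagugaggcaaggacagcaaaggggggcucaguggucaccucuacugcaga

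Mir204 has 68 bases and Mir211 has 106. Their alignment held 52 identical bases in 108 columns, and the longest run they shared was 17 bases. The table gives 1 value for each hairpin gene, so reads of the 5p and 3p strands could not be told apart.

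Mir204 lies at chr19:22750605-22750672 on the plus strand of GRCm38, in the same sense as Trpm3 (chr19:22139046-22995410). In GENCODE M21, all 15 protein-coding Trpm3 transcripts that span it have it in an intron, as the sixth or seventh intron of the transcript. It lies 611.6 kb downstream of the start of the 856.4 kb host gene. Mir211 lies at chr7:64205806-64205911, also on the plus strand and in the sense of its host, Trpm1 (chr7:64153835-64269775). All 8 protein-coding Trpm1 transcripts that span it have it in an intron, 51.97 kb downstream of the start of the 115.9 kb gene. Small-RNA libraries do not measure the host mRNAs, whose levels were not analysed here.

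MITF and related factors bind E-box motifs, so the 2 promoter windows of 300 bases that RefSeq gave for each host were searched for CACGTG and CATGTG on both strands. The Trpm1 window at chr7:64185209-64185508 held 1 CACGTG and 1 CATGTG, and the window at chr7:64153585-64153884 held 1 CATGTG. Neither motif occurred in the 2 Trpm3 windows, chr19:22138796-22139095 and chr19:22447958-22448257. Of 32851 mouse promoter windows of this length, 7.15% held CACGTG and 14.2% held CATGTG, so a match is common and is given as a description only. GENCODE M21 has further host transcripts that start nearer to the miRNAs, and those starts were not searched.

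Values are normalized counts, in which each library's reads are scaled by its own size factor. The deposited means were resolved into whole reads of 3 libraries per group. These are called A, B and C, from the largest size factor to the smallest, with 85558 to 305142 resolved reads each. In both groups library C, the shallowest, stood apart. Over 263 miRNAs, the log2 difference of C from the mean of A and B had an SD of 1.29 for ESCs and 1.20 for NCs. For A from B it was 0.346 and 0.244. The main results below are therefore also given without library C. Among fixed markers, all 12 ESC miRNAs were higher in ESCs (12.0% of the summed means, against 1.96% in NCs) and all 8 miRNAs of RA-treated neural cells were higher in NCs (50.7% against 0.415%), most of it mir-10a. Most of the ESC marker signal in ESCs came from mir-291a, mir-292 and mir-293, which were not resolved by library. mir-367 rested on 3 reads in ESC library A alone. The 8 neural miRNAs are not separate measurements. They include 3 copies of mir-9 and 3 of mir-124, and the mir-124 copies had at most 6.02 normalized counts in either group mean. All 5 muscle miRNAs were at 0 in both groups.

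mir-211 was at an intermediate level in ESCs and scarce in NCs. Its reads in ESC libraries A, B and C were 387, 226 and 187, which gave normalized counts of 238.6, 241.1 and 341.6. In the NC libraries it had 29, 12 and 14 reads, or 12.6, 12.3 and 23.9 normalized counts. Every ESC library thus lay far above every NC library, and library C was the highest in both groups.

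The mir-211 mean was 273.8 ± 58.8 (SD, n = 3) normalized counts in ESCs and 16.3 ± 6.65 (SD, n = 3) in NCs. It was 16.8-fold lower in NCs, a log2 difference of -4.07. Over the 9 pairs of an ESC with an NC library, the ratio ran from 9.97-fold to 27.8-fold lower. Without library C of either group the log2 difference was -4.27. Groups that did not overlap, lower in NCs, occurred in 14.3% of 308 resolved miRNAs (those averaging 10 or more), and nothing is read from it here since the contrast chose the members.

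mir-204 was scarce in both groups and lay somewhat higher in NCs. Its ESC libraries A, B and C held 25, 5 and 11 reads, or 15.4, 5.33 and 20.1 normalized counts. The NC libraries held 53, 24 and 24 reads, or 23.0, 24.6 and 41.0 normalized counts. The lowest NC library, A, lay just above the highest ESC library, C, so the groups did not overlap but nearly met.

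The mir-204 mean was 13.6 ± 7.54 (SD, n = 3) normalized counts in ESCs and 29.5 ± 10.0 (SD, n = 3) in NCs. It was 2.17-fold higher in NCs, a log2 difference of 1.12, and 1.20 without library C of either group. Over the 9 pairs of libraries the ratio ran from 1.14-fold to 7.69-fold higher. With so few reads, counting error alone is wide. The exact 95% Poisson interval was 1.73 to 12.4 normalized counts in ESC library B and 10.0 to 36.0 in ESC library C, and the latter overlapped the interval of 17.2 to 30.1 in NC library A. Groups that did not overlap, higher in NCs, made up 17.2% of the 308 miRNAs, again given without reading anything from it.

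**Figure D1:**
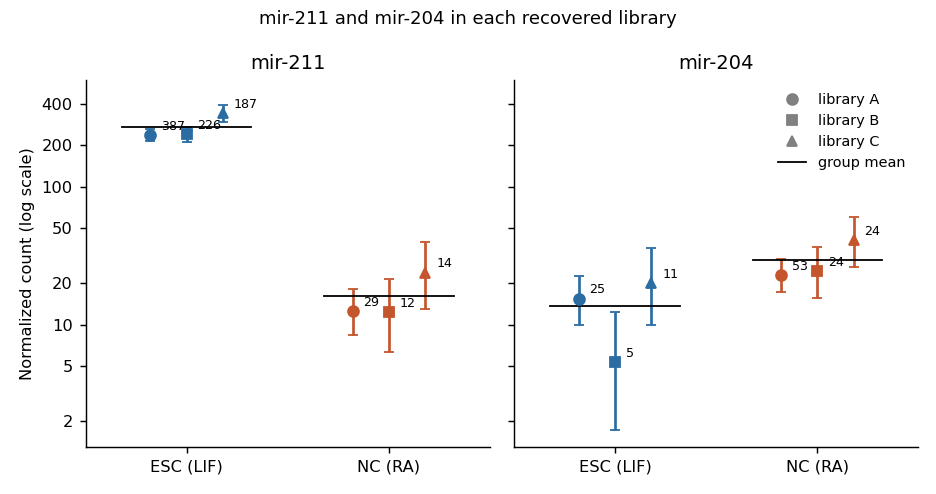
Normalized counts (log scale) of mir-211 (left) and mir-204 (right) in the recovered libraries of ESCs (blue) and NCs (orange). Symbols mark libraries A, B and C, bars are exact 95% Poisson intervals, numbers are reads and the black line is the group mean. The mir-211 libraries lie at 238.6 to 341.6 in ESCs and at 12.3 to 23.9 in NCs, and the mir-204 libraries lie at 5.33 to 20.1 and 23.0 to 41.0.

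The summed level of mir-204 and mir-211 was set by mir-211 in ESCs and mostly by mir-204 in NCs. Strands could not be told apart, so it is not a total for the shared seed. The sum of both genes was 287.4 ± 64.5 (SD, n = 3) normalized counts in ESCs and 45.8 ± 16.6 (SD, n = 3) in NCs. This was 6.28-fold lower in NCs, a log2 difference of -2.65, and -2.79 without library C of either group. The higher mir-204 in NCs was 15.9 normalized counts, against 257.5 normalized counts by which mir-211 was lower.

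The share of each gene in the reads of the pair does not depend on the scaling between libraries. In ESC libraries A, B and C, mir-211 made up 93.9%, 97.8% and 94.4% of the pair. In the NC libraries it made up 35.4%, 33.3% and 36.8%. The shares were close within a group and far apart between groups, and library C did not stand apart by this measure.

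Over the summed reads, mir-211 had 800 of 841 in ESCs, or 95.1% (exact binomial 95% interval 93.4 to 96.5), and 55 of 156 in NCs, or 35.3% (27.8 to 43.3). mir-204 held the rest, 4.88% in ESCs and 64.7% in NCs. By the deposited means, mir-211 exceeded mir-204 by 20.1-fold in ESCs, and mir-204 exceeded mir-211 by 1.82-fold in NCs. The order of the pair was thus opposite in the 2 groups. By single NC library, the upper end of the interval for mir-211 was 46.7% in A, 51.0% in B and 54.0% in C. The intervals of NC libraries B and C thus included equal reads. These intervals cover counting error only.

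**Figure D2:**
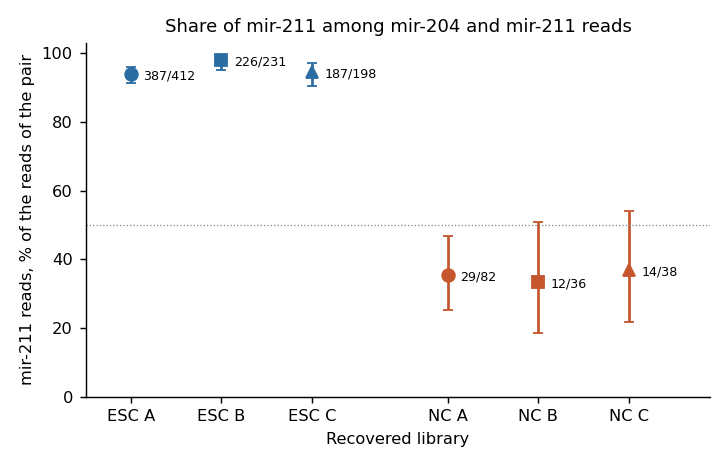
Percent of the reads of mir-204 and mir-211 that belonged to mir-211 in each recovered library, with mir-211 reads over pair reads beside each point. Bars are exact binomial 95% intervals and the dotted line marks equal reads. The ESC libraries lie at 93.9% to 97.8% and the NC libraries at 33.3% to 36.8%.

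How reads were assigned between the 5p strands is not given in the sources used here. A read that stops within the shared first 16 bases would match both genes. Copies whose 5p strands are identical had near-equal values in this table. In 10 such pairs of copies that share the 5p but not the 3p strand, with a mean of at least 10 in ESCs, the larger mean was 1.00-fold to 1.53-fold the smaller, with a median of 1.01. In NCs, 11 such pairs ran from 1.00-fold to 1.57-fold, also with a median of 1.01. mir-204 and mir-211, whose 5p strands differ at 1 base, differed by 20.1-fold in ESCs and by 1.82-fold in NCs, the latter not far from the upper end of the copies. Whether reads were shared or exchanged between mir-204 and mir-211 was not tested.

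Copies that share the 3p but not the 5p strand were less alike. In 4 such pairs in ESCs the ratio was lowest for mir-19b-1 and mir-19b-2 (1.11-fold), and it was 23.8-fold for mir-24-1 and mir-24-2, while mir-128-2 was at 0 beside mir-128-1. What this difference between strands came from was not tested. Values of miRNAs whose main strand is the 3p, such as mir-124, mir-137, mir-103, mir-128, mir-101a, mir-148a, mir-148b and the muscle miRNAs mir-1a and mir-133a, may therefore not stand for that strand. The main strand of miR-204 and miR-211 is the 5p. For other named miRNAs, such as the ESC markers, the neighbours in level and the most alike, the main strand was not checked. The same limit may hold for them.

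In the order of all miRNAs by mean, mir-211 stood at place 110 of 549 above 0 in ESCs and at place 300 of 602 in NCs. Its ESC neighbours were mir-302a (299.0 normalized counts), mir-467e (289.1) and mir-377 (283.5) above, and mir-409 (255.8), mir-376a (229.9) and mir-470 (227.7) below. All 6 means lay within 1 SD of the mir-211 mean. Neighbours were picked in each group for nearness in mean, so nothing is read from this. Single libraries could differ, as for mir-409, with 101, 48 and 358 reads in ESC libraries A, B and C. There mir-211 had 387, 226 and 187. Of the 6 ESC neighbours, mir-302a, an ESC miRNA, was also near mir-211 in NCs (15.0 normalized counts), while mir-470 was at 251.2. The NC neighbours mir-19b-1, mir-465b-2, mir-199b, mir-1943, mir-540 and mir-574 were at 15.9 to 16.7 normalized counts, also within 1 SD.

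mir-204 stood at place 303 of 549 in ESCs and 254 of 602 in NCs. Its ESC neighbours mir-466n, mir-92a-2, mir-19b-2, mir-3098, mir-346 and mir-574 were at 12.9 to 14.3 normalized counts. The NC neighbours mir-671, mir-1843a, mir-346, mir-504, mir-291b and mir-3473d were at 27.4 to 30.4. All these means lay within 1 SD of the mir-204 mean, which again follows from how they were picked. mir-346 was among the neighbours of mir-204 in both groups, with means of 12.9 and 30.3 normalized counts. By contrast, mir-291b of the ESC miRNAs came to the NC level of mir-204 from 98.3 in ESCs.

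Among 332 miRNAs averaging 10 or more, mir-211 had the third lowest log2 ratio of NC to ESC and mir-204 the 47th highest. The median log2 ratio of the 332 was -0.08, with 150 higher and 182 lower in NCs.

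**Figure D3:**
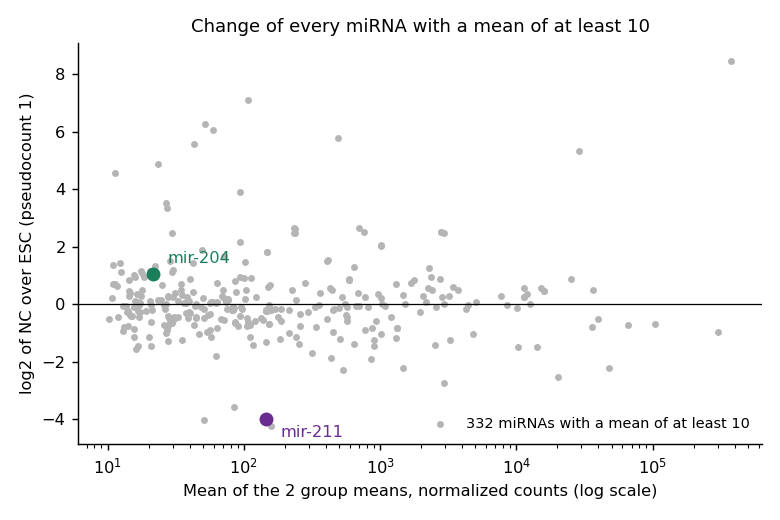
log2 ratio of the NC to the ESC mean, with a pseudocount of 1, against the mean of both groups in normalized counts (log scale) for 332 miRNAs. mir-211 lies at the lower edge of the cloud and mir-204 within its upper part.

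The direction of both genes held under every scaling and selection of libraries tried. Scaling both groups to equal totals shifts all log2 values by -0.48, and leaving mir-10a out of the totals shifts them by 0.44. mir-10a, which lies in the Hoxb cluster, had means of 2136 in ESCs and 754551 in NCs. With these scalings mir-211 ranged from -4.55 to -3.63 and mir-204 from 0.64 to 1.56. Leaving out 1 library gave -4.46 to -3.88 for mir-211 and 0.73 to 1.51 for mir-204.

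**Figure D4:**
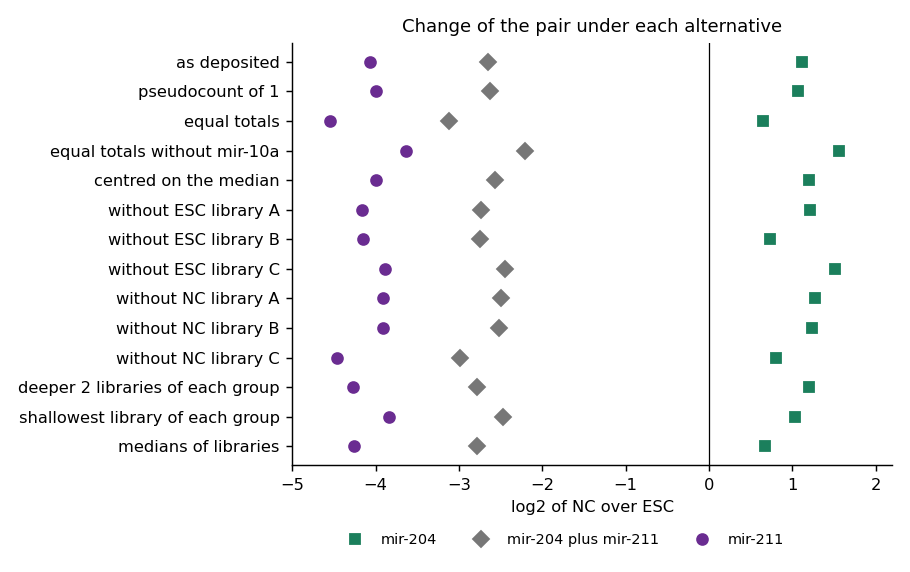
log2 of NC over ESC for mir-211, mir-204 and their sum as deposited and under 13 alternatives of pseudocount, scaling and libraries. All mir-204 points lie right of 0, between 0.64 and 1.56, and all mir-211 points lie between -4.55 and -3.63.

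The likeness of other miRNAs was measured by Pearson's r of log2 normalized counts over the 6 libraries, for 307 miRNAs averaging 10 or more. The libraries share their scaling and the deviation of library C, so r is a description. Most like mir-211 were mir-302d (r = 0.997), mir-290a (0.994), mir-329 (0.994), mir-30c-2 (0.979) and mir-378d (0.977). mir-302d and mir-290a belong to the miRNA clusters that mark ESCs. mir-302d went from 155.9 to 12.3 normalized counts and mir-290a from 1350 to 360.6.

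Most like mir-204 were mir-92b (r = 0.952), mir-679 (0.947), let-7e (0.937), mir-346 (0.934) and mir-3072 (0.929). mir-92b went from 12.4 to 24.7 normalized counts and let-7e from 78.6 to 148.0. Other members of the let-7 family went both ways, such as let-7c-1 from 211.5 to 611.9 and let-7g from 151.4 to 69.0. Between mir-204 and mir-211 themselves r was -0.622.

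Blood markers were checked because they too were lower in NCs. Of 6 listed, 4 had a row, 3 of which were lower in NCs. Their summed mean was 6041 normalized counts in ESCs and 1136 in NCs, nearly all from mir-150 (5114 and 776.1) and mir-142 (924.5 and 356.7). Summed per library they ranged from 2243 to 13499 in ESCs and from 858.8 to 1659 in NCs. The erythroid mir-451a and mir-144 were at or under 2.27 in both groups. mir-150 had 1154, 1028 and 13159 normalized counts in ESC libraries A, B and C and 346.8, 370.6 and 1611 in the NC libraries. mir-142 had 1083, 1351 and 339.8 in ESCs and 505.0, 517.0 and 47.9 in NCs. Within libraries A and B both were thus lower in NCs, as mir-211 was. The part of blood cells in the mir-211 levels was not tested. The liver marker mir-122 had 0.411 in ESCs and 0 in NCs. In bulk cultures, fewer cells of a type and less RNA per cell cannot be told apart.

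Other miRNA families of the same layout, in introns of paralogous hosts, were listed to set beside the pair. They were mir-26 in the Ctdsp phosphatase genes, mir-103 and mir-107 in the Pank pantothenate kinase genes, mir-128 in R3hdm1 and Arpp21, mir-218 in the Slit guidance genes, and mir-208 and mir-499 in myosin heavy chain genes. GENCODE M21 places all 13 in these hosts. The members could be tested with limma-voom on the recovered reads, with Benjamini-Hochberg adjustment over 316 miRNAs, of which 9.81% were called higher and 5.7% lower in NCs. These calls were 31 higher and 18 lower, or 27 and 24 with summed resolved reads as library sizes.

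Of the 13, 5 passed the filter of 10 reads in 3 libraries, 6 had too few reads and mir-26a-1 and mir-26a-2 were not resolved. By limma-voom 0 of the 5 were called, 1 had an unadjusted p under 0.05, and limma-trend also called 0. Without library C of either group limma-voom called 28.1% of 324 miRNAs higher and 21.6% lower, and it then called 3 of the 5 higher, 2 of them mir-218 copies, and 1 lower. The median log2 difference of the 5 was 0.52, against -0.07 over all tested.

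mir-218-1, in Slit2, had 77.1, 96.0 and 21.9 normalized counts in ESC libraries A, B and C and 300.0, 288.7 and 104.3 in the NC libraries. Every NC library was above every ESC library, and library C was the lowest of each group. Its log2 difference was 1.65 ± 0.621 (SE), with a limma-voom adjusted p of 0.138, and 1.80 ± 0.158 without library C of either group (adjusted p = 4.5e-07). mir-218-2, in Slit3, carries the same 5p strand and had a log2 difference of 1.76 ± 0.750 (limma-voom adjusted p = 0.192). Its reads cannot be told apart from those of mir-218-1.

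mir-26b, in Ctdsp1, had a log2 difference of 0.52 ± 0.273 (limma-voom adjusted p = 0.302), and 0.37 without library C of either group (adjusted p = 0.00989). The shift of -0.48 at equal totals comes from the means of all libraries. It is nearly as large as the 0.52 and exceeds the 0.37, so the direction of mir-26b is not secure. mir-499, in Myh7b, had -0.76 ± 0.559 (limma-voom adjusted p = 0.482), and -1.17 without library C of either group (adjusted p = 0.0129). mir-128-1, in R3hdm1, had -0.05 ± 0.308 (limma-voom adjusted p = 0.937). mir-26a-1, in Ctdspl, had deposited means of 13286 in ESCs and 18380 in NCs.

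In mir-218 and mir-26a the copies carry the same 5p strand, so their values cannot be assigned to 1 host or the other. mir-103-1, mir-103-2, mir-107, mir-208a and mir-208b had at most 3.18 normalized counts in either group mean. mir-128-2, in Arpp21, was at 0 in both groups while mir-128-1 had 80.0 and 71.4 normalized counts in ESCs and NCs.

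miRNAs known for the retina, lens or cornea, as the pair is, formed a list of 10. Of these, 4 were tested, 4 had too few reads and 2 were not resolved. limma-voom called 1 lower in NCs and 0 higher, against 5.7% and 9.81% of all tested. mir-96, a miRNA of photoreceptors and hair cells, had 1216, 1359 and 1520 normalized counts in the ESC libraries and 741.7, 653.2 and 589.9 in the NC libraries. It fell 2.09-fold in NCs, with a log2 difference of -1.06 ± 0.262 (limma-voom adjusted p = 0.0369), and -0.87 without library C of either group (adjusted p = 1.0e-04). The call was lost when any 1 of the 6 libraries was left out (adjusted p from 0.0651 to 0.151), and with no filter on reads (0.0978).

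mir-182 and mir-183, which share a cluster with mir-96, were not resolved and had deposited means of 400664 and 45340 in ESCs and 207742 and 26490 in NCs. mir-9-1, mir-9-2 and mir-9-3, miRNAs of neural progenitors and retina, had log2 differences of 0.90 to 0.91, and their limma-voom adjusted p was 0.0803. All 3 were called higher without library C of either group, at 0.57 to 0.59. The shift of -0.48 at equal totals is nearly as large as these values. These copies carry the same 5p strand, and their means were within 0.855% of mir-9-1, so they are 1 measurement listed 3 times. The median of the 4, set by these copies, was 0.90, against -0.07 over all tested. The neuronal mir-124 copies had at most 6.02 normalized counts, and mir-184, a miRNA of cornea and lens, was at or under 0.145. The limit on miRNAs whose main strand is the 3p bears on mir-124 and may bear on mir-184.

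MITF, the melanocyte factor upstream of Trpm1, is itself a known target of several miRNAs, and 11 of these were listed. Of the 11, 7 were tested, 3 had too few reads and 1 was not resolved. limma-voom called 1 lower in NCs, mir-96, and 0 higher. Without library C of either group it called 4 higher and 2 lower of the 7, where 28.1% of all 324 miRNAs were called higher and 21.6% lower. Of the 4, 2 were the mir-218 copies, whose reads cannot be told apart. The median log2 difference of the 7 with all 6 libraries was 0.46, against -0.07 over all tested.

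mir-148a and mir-148b had log2 differences of -0.15 ± 0.410 and 0.46 ± 0.369 (limma-voom adjusted p = 0.890 and 0.544). Without library C of either group mir-148a turned to 0.13 ± 0.142 (limma-voom adjusted p = 0.476), and mir-148b was called higher, at 0.56 ± 0.139 (adjusted p = 0.00449). The shift of -0.48 at equal totals exceeds the 0.46 in size and is nearly as large as the 0.56. The direction of mir-148b is thus not secure. mir-101a had -1.02 ± 0.883 (limma-voom adjusted p = 0.573), and its highest libraries reached 54.4 normalized counts in ESCs and 29.7 in NCs, with library C the lowest each time. Without library C of either group it was called lower in NCs, at -0.78 ± 0.233 (limma-voom adjusted p = 0.0129). mir-340 had 0.92 ± 0.999 (limma-voom adjusted p = 0.675), and its library C lay at 365.4 and 654.9 normalized counts, against 2288 and 2200 in ESC libraries A and B and 4476 and 4225 in NC libraries A and B. Without library C of either group, mir-340 was 1.94-fold higher in NCs (limma-voom adjusted p = 7.0e-06). mir-137, a neural miRNA that represses Mitf, was listed at 0 in every library. A floor of 3 reads in each library at once would be a mean of 3.51 in ESCs and 3.17 in NCs. With 0 reads in every library, counting error alone allows less than that. Since the main strand of mir-137 is the 3p, its level is not bounded by these values. These counts moved with library C, whose cause was not tested.

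**Figure D5:**
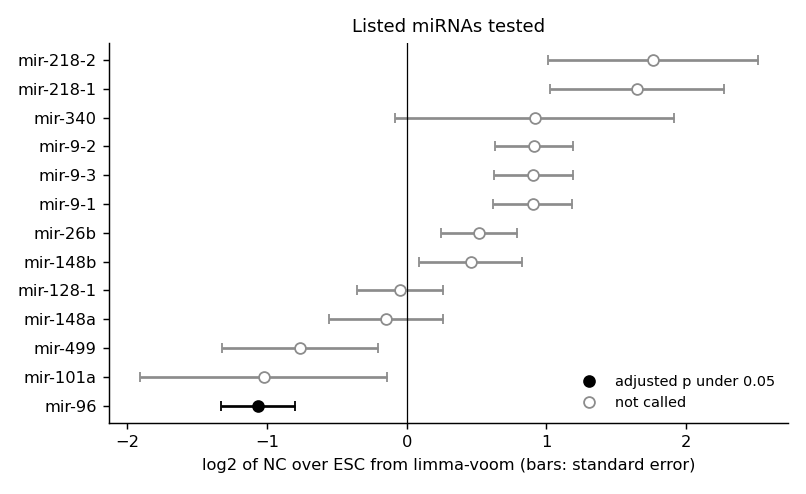
log2 difference of NC from ESC with its standard error from limma-voom for the 13 listed miRNAs that passed the filter. mir-96 at -1.06 is the one filled point, with an adjusted p under 0.05, and the open points were not called.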

How the data were processed

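Small RNA was sequenced from 3 ESC and 3 NC samples, grouped by their labels. The authors deposited 1 table of their comparison. Its 2 signal columns hold the authors' group means of reads divided by size factors. The other deposited columns, the authors' fold changes, p-values and adjusted p-values, were not used. The submitters' processing notes name the build mm10 and DESeq. The aligner, adapter trimming, the annotation of miRNAs and the handling of shared reads are not given in the sources used here, and these bear on miRNAs of like sequence.

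The reads of single libraries were recovered by enumeration, since 3 times a mean is a sum of whole reads each divided by its size factor (tolerance 3e-10). This resolved 527 of 549 miRNAs above 0 in ESCs (96.0%, with 11.7% of the signal) and 578 of 602 in NCs (96.0%, with 8.70%). In simulated data all 494 and 527 resolved miRNAs were right. Size factors ran from 1.62 through 0.937 to 0.547 for the ESC libraries and from 2.31 through 0.977 to 0.585 for the NC libraries, none of which can be tied to a replicate number. Poisson and binomial intervals are exact, at 95%, and like the floor of 3 reads they cover counting error only.

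limma 3.58.1 with voom weights (R 4.3.3) was run on the 610 miRNAs with reads resolved for all 6 libraries, scaled by the size factors, with at least 10 reads in 3 libraries, and Benjamini-Hochberg adjustment (threshold 0.05). In simulated counts of these 610 with a 4-fold change, 93 of 93 changed miRNAs that passed the filter were called, with 3 false calls. The simulated counts held no deviation like that of library C, so they do not give the power of the fit on the recovered reads. Alternatives covered the pseudocount, scaling, filter, model, threshold and libraries. Named miRNAs were both members, listed miRNAs, the 5 most like each member and the 3 nearest in level above and below it. Single miRNAs of the marker and copy checks were also named, chosen after their values were seen. The members and lists were chosen with earlier results of these data known. Sequences came from RefSeq (GRCm38.p6, the assembly of mm10) and introns from GENCODE M21. Python 3.11.15, numpy 2.4.6, pandas 2.3.3, scipy 1.17.1 and biopython 1.88 were used.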

Additional observations from a re-analysis of the deposited data

How the results depend on the processing

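No paired analysis was possible because none of the libraries could be tied to a replicate number. The alternatives changed the direction of neither mir-211 nor mir-204, nor of their sum, and moved the mir-211 share of the pair by less than the spread between libraries. Leaving out 1 library gave -2.99 to -2.45 for the log2 difference of the sum, 94.2% to 95.9% for the ESC share and 34.3% to 36.3% for the NC share.

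Of 316 miRNAs tested, 49 were called. With library C against A and B as a covariate this became 142 of 316 (74 higher and 68 lower in NCs). Without library C of either group it became 161 of 324 (91 higher and 70 lower). At least 10 reads in every library gave 30, with 225 miRNAs tested. Leaving out 1 library gave 17 to 52, and the count was 17 or 19 when ESC library A or B was the one left out and 27 or 22 when it was NC library A or B. The cause was not tested. The 0 calls among intronic miRNAs of paralogous hosts became 3 with the covariate and 4 without library C, and stayed 0 in the 6 fits that left out 1 library. The 1 call among eye miRNAs became 4 with the covariate, 4 without library C, and 0 with no filter on reads or with any 1 library left out. The 1 call among Mitf-targeting miRNAs became 6, 6 and 0 in the same settings. With the covariate and without library C, 5 intronic, 4 eye and 7 Mitf-targeting miRNAs were tested. Calls rose over all miRNAs in both fits, so nothing is read about the lists from their rise. The mir-9 and mir-218 copies in these lists are not separate measurements. Depth was low for mir-204, with 5 to 53 reads a library, and for mir-211 in NCs, with 12 to 29.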
